A study of Homo sapiens with 12 samples.

Results

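The 200 long non-coding RNA (lncRNA) genes described here were the most abundant of their kind in 2 human acute myeloid leukemia (AML) cell lines treated with duocarmycin SA (DSA). Members were chosen by their own measured level, as the genes of GENCODE type lncRNA with the highest mean CPM (a library's count divided by its total, times 1e6) over the 12 libraries, 200 of 16672 lncRNA genes and of 60754 genes in the files. HL-60 cells received no DSA, 112.7 pM or 500 pM, and Molm-14 cells received no DSA, 11.1 pM or 100 pM, for 36 h, with 2 libraries in each of the 6 groups. In the labels the controls are untreated, while the study's methods speak of vehicle. HL-60 cells grew in IMDM with 20% fetal bovine serum and Molm-14 cells in RPMI with 10%, so line, dose, medium and serum cannot be told apart when the lines are compared. Each line comes from 1 patient. No source says that the libraries of a group came from separate cultures, and the p-values therefore take in no more than the difference between libraries of a group, which may be technical.

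DSA is an alkylating agent that binds in the minor groove of DNA and reacts with adenine. LncRNAs are transcripts with no long open reading frame, and the abundant ones fall into a few kinds. Some are spliced hosts whose introns release small nucleolar RNAs (snoRNAs), which guide chemical modification of ribosomal RNA, and some are precursors of microRNAs (miRNAs). Others stay in the nucleus as scaffolds of nuclear bodies (NEAT1 of paraspeckles, MALAT1 in speckles), act in the cytoplasm (NORAD, which binds PUMILIO proteins), or are transcribed antisense to a coding gene.

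Library totals lay between 21177424 and 63927449 expected counts. The members together took 0.662% to 0.871% of the counts of a library and 70.4% to 77.3% of all lncRNA counts. Of 5 genes of promyelocyte granules, MPO (14456 and 14426 CPM in HL-60 controls, 141 and 133 in Molm-14 controls) and PRTN3 (1775 and 2032 against 513 and 511) were higher in HL-60 controls. ELANE (369 and 395 against 786 and 818), AZU1 (186 and 199.9 against 1372 and 1488) and CTSG (122 and 121 against 429.9 and 427) were lower there. HOXA9, which a KMT2A fusion keeps high, was at 108 and 111 CPM in Molm-14 controls and at most 0.185 CPM in HL-60 libraries. HBB and MS4A1, markers of erythroid and B cells, were at 0 in all 12 libraries. Counts of mitochondrially encoded genes took a larger share of the treated libraries, with 2.22% and 2.47% of the total in HL-60 controls, 3.68% and 3.76% at 112.7 pM, 5.46% and 4.64% at 500 pM, and 1.47% and 1.68% in Molm-14 controls, 2.45% and 2.35% at 11.1 pM, 4.09% and 2.72% at 100 pM. Their part in the results was not tested. With these genes left out of the fit, 135 of 137 member calls in HL-60 and 101 of 102 in Molm-14 cells at the high dose were kept.

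Mean CPM fixed the choice and is given as a description only. It was highest for SNHG29 at 1079, with a median of 15.8. Just inside the border TTN-AS1 stood at 7.51, and just outside it ARHGAP27P1-BPTFP1-KPNA2P3 stood at 7.30. After SNHG29 came GAS5 (399), NEAT1 (362), MALAT1 (295), NORAD (229), SNHG1 (225), OIP5-AS1 (190), SNHG32 (176), SNHG3 (153) and ZFAS1 (145). These 10 genes held 40.5% to 49.1% of the members' counts. Of the 200 members, 170 were also among the 200 most abundant lncRNAs of the HL-60 libraries alone, 167 among those of the Molm-14 libraries alone, and 137 among both.

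By length-scaled level (TPM, a transcript measure scaled by length and total, as deposited) the order differed. SNHG29, a host of snoRNAs on chromosome 17, led with a mean of 1575 TPM, followed by GAS5 with 928, SNHG6 with 375, SNHG32 with 302 and SNHG8 with 295. NEAT1 had a mean of 155 TPM, MALAT1 68.5 and NORAD 51.2. SNHG29 lay between 814 and 941 TPM in HL-60 and between 2209 and 2324 TPM in Molm-14 libraries, with no overlap of the lines. The snoRNA hosts therefore took the first places per length, and the long nuclear RNAs stood lower than their counts placed them.

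**Figure D1:**
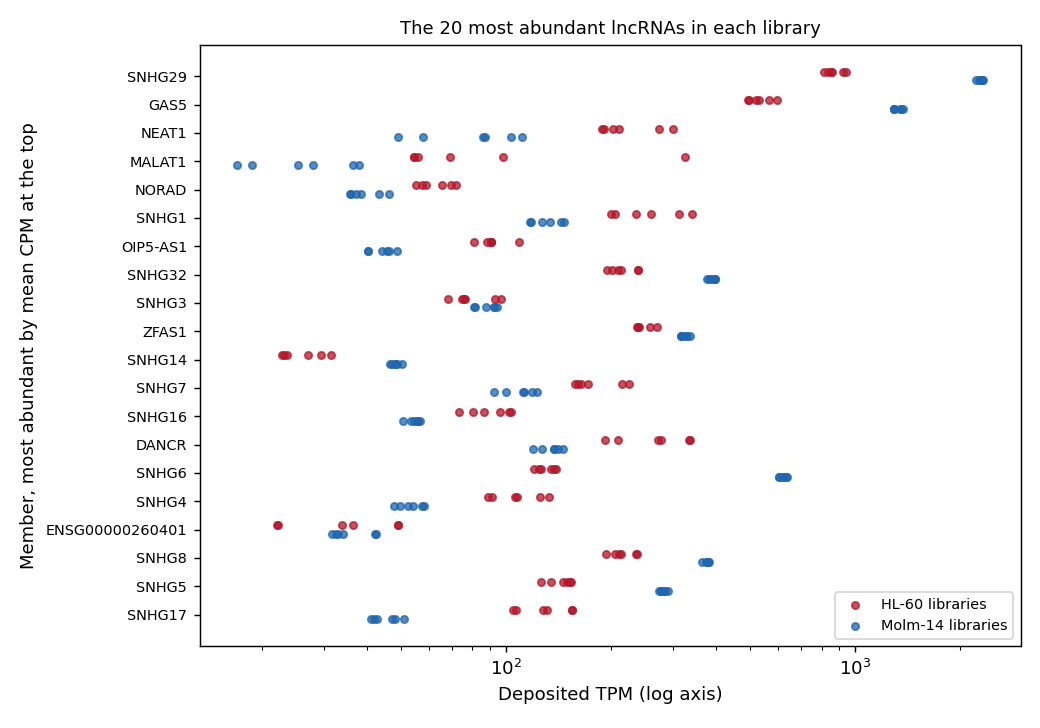
Deposited TPM (log axis) of the 20 members with the highest mean CPM, ordered by mean CPM from the top; each point is 1 of 6 HL-60 libraries (red) or 1 of 6 Molm-14 libraries (blue). SNHG29 lies at 814 to 941 TPM in HL-60 and 2209 to 2324 TPM in Molm-14 libraries, and 1 HL-60 library stands apart for MALAT1 at 326 TPM.

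The members lay on all autosomes and on X, most on chromosome 17 (19 genes) and chromosome 19 (17 genes). By symbol, 57 were antisense genes, 29 were named as host genes, 23 had a LINC symbol, 11 were divergent transcripts, 42 had only a clone or identifier name and 38 had another symbol. Their exons covered a median of 5627.5 bases, from 511 to 122609. Exon bases were shared with a protein-coding gene in 113 members, on the same strand in 36, and not in 87. No source used here says whether counting used strand, so reads from these 113 genes and their neighbours may not be told apart.

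Of the 200 members, 74 rose and 63 fell in HL-60 cells at 500 pM against controls at an adjusted p under 0.05 (edgeR quasi-likelihood test, Benjamini-Hochberg over all 17364 genes tested). In Molm-14 cells at 100 pM 80 were higher and 22 lower. These were 37.0% and 31.5% of the members in HL-60 cells, against 32.8% and 32.7% of all genes tested, and 40% and 11.0% of the members in Molm-14 cells, against 18.3% and 19.1% of all genes tested. In these bulk libraries fewer cells of a kind and less RNA per cell cannot be told apart. The Molm-14 lower count was 12 without the first control library. Since calls are easier for abundant genes, the 9751 other genes with a mean of at least 7.38 CPM serve as a second background. That background has no upper bound and is not matched to the levels of the members. Of its genes, 28.2% rose and 51.5% fell in HL-60 cells, and 21.1% rose and 31.4% fell in Molm-14 cells. The members thus had a smaller share of lower calls than these genes in both lines, by the counts. The part of abundance in this was not tested. With total counts in place of TMM scaling the HL-60 split was 101 higher and 41 lower, and the median of all genes moved to 0.19.

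Most of these changes were small. The members' median log2 fold change was 0.06 in HL-60 and 0.12 in Molm-14 cells, against 0.02 and 0.00 over all genes tested. The 2067 less abundant lncRNAs that were tested had medians of 0.51 and 0.27. Past a fold change of 2 as well, 17 members rose and 4 fell in HL-60 cells (17.0% and 2.30% of all genes), and 8 rose and 1 fell in Molm-14 cells (3.45% and 0.766%). All 200 members passed the filter on low counts. The libraries of the high dose and of control did not overlap in 165 members in HL-60 and 157 in Molm-14 cells, while over all genes the groups lay apart in 41.0% upward and 39.0% downward in HL-60 and in 35.0% and 33.2% in Molm-14 cells.

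At the low doses the lines differed in how many calls they gave. In HL-60 cells at 112.7 pM 41 members were higher and 54 lower (19.7% and 22.3% of all genes tested), and in Molm-14 cells at 11.1 pM 17 were higher and none lower (0.795% and 0.196%). In HL-60 cells 5 members passed a fold of 2 as well, all higher (5.06% higher and 0.426% lower over all genes). These 5 include CCDC144NL-AS1, which had 0 counts in HL-60 controls and at most 2 in any HL-60 library. In Molm-14 cells 0 members passed that fold (0.0115% in each direction). The Molm-14 count of 17 was 3 without the first control library, 11 without the first low-dose library and 10 without the second, so its size rests on single libraries. No member was lower there by edgeR, DESeq2 or limma-voom after adjustment. The HL-60 counts were 27 higher without the second and 35 lower without the first low-dose library. Of the 17 Molm-14 calls, 15 were also higher at the high dose. Of the 74 members higher in HL-60 cells at 500 pM, 37 were already higher at 112.7 pM, and of the 63 lower, 44 were already lower. The counts of calls shared by 2 doses rest on the same control libraries, and the same counts were not made over all genes.

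The high doses were also set against the low doses. In HL-60 cells 61 members were higher and 33 lower at 500 than at 112.7 pM (22.1% and 23.2% of all genes tested), and in Molm-14 cells 45 were higher and 26 lower at 100 than at 11.1 pM (15.3% and 15.2%). LINC03040 (log2 fold change 1.65 ± 0.12), LINC00963 (1.36 ± 0.07) and ENSG00000272405 (1.35 ± 0.10) led in HL-60 cells (values are estimate ± SE throughout). LINC01215 (1.24 ± 0.30), ENSG00000260997 (1.04 ± 0.09) and LINC00926 (0.85 ± 0.06) led in Molm-14 cells. Past a fold of 2 as well, 5 members were higher in HL-60 cells (8.08% of all genes higher, 0.795% lower) and 2 rose and 1 fell in Molm-14 cells (2.18% and 0.662%). LINC01215 rested on 8 to 32 counts in Molm-14 libraries and lost its call without the first high-dose library (0.92) or the first low-dose library (1.06). The HL-60 lower count was 20 without the second low-dose library, and the Molm-14 lower count was 17 without the first high-dose library.

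**Figure D2:**
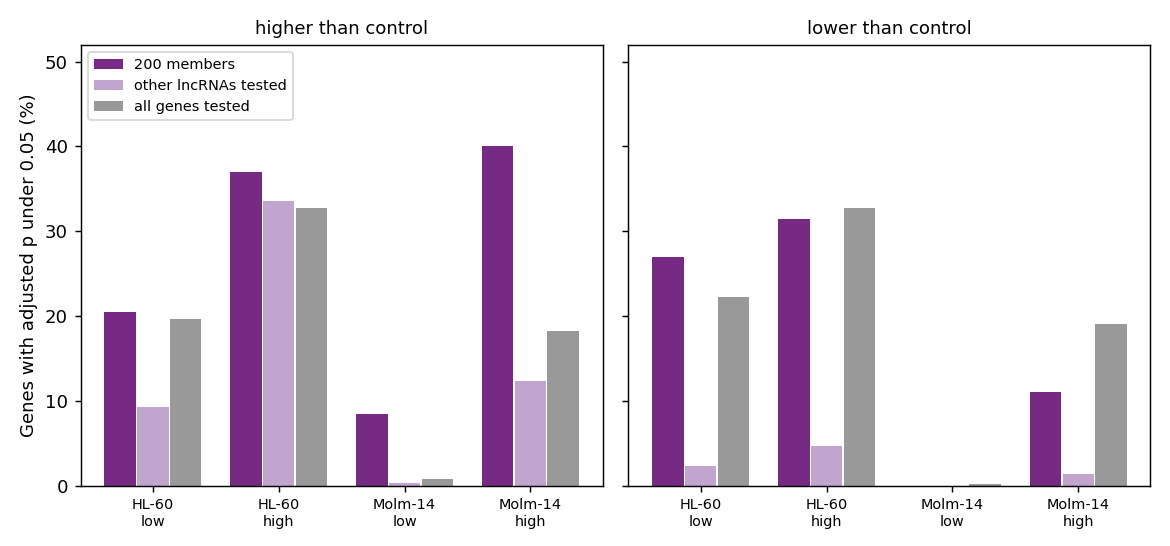
Percent of genes with an adjusted p under 0.05 that were higher (left panel) or lower (right panel) than control at each dose, for the 200 members, the 2067 other lncRNAs tested and all 17364 genes tested. In Molm-14 cells at the high dose 40% of the members were higher, against 18.3% of all genes; in HL-60 cells at the high dose the members' shares, 37.0% and 31.5%, lay near those of all genes.

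NEAT1, the scaffold of paraspeckles, and MALAT1, a speckle RNA, are neighbours on chromosome 11 (65422774 to 65445540 and 65497640 to 65508073, GRCh38), and both rose at the high dose in each line of cells. In HL-60 cells NEAT1 had 460 and 487 CPM in controls, 405 and 479 at 112.7 pM and 630 and 652 at 500 pM. In Molm-14 cells it had 114 and 126 CPM in controls, 202 and 195 at 11.1 pM and 259 and 253 at 100 pM. The Molm-14 groups did not overlap at either step, while in HL-60 cells only the high dose stood clear. The high-dose log2 fold changes were 0.44 ± 0.06 in HL-60 (adjusted p = 3.81e-06) and 1.09 ± 0.06 in Molm-14 cells (adjusted p = 4.59e-10), and at the low dose NEAT1 had the largest called increase of the members in Molm-14 cells, 0.73 ± 0.06. The difference between the lines, HL-60 minus Molm-14, was -0.66. CPM here and below were scaled by TMM factors.

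MALAT1 had 219 and 222 CPM in HL-60 controls, 275 and 265 at 112.7 pM, and 390 and 1310 at 500 pM. One high-dose HL-60 library thus held over 3 times the level of its replicate, with 46011 counts against 9013, and MALAT1 alone made up 16.5% of its members' counts, against 5.69% in the other. The log2 fold change was 1.95 ± 0.31 (adjusted p = 2.37e-05), 0.82 without that library and 2.55 without its replicate, with the call kept in both. The members' share of counts in that library was 0.871%, or 0.728% without MALAT1, against 0.748% or 0.706% in its replicate. In Molm-14 cells MALAT1 had 74.4 and 85.2 CPM in controls, 111 and 122 at 11.1 pM and 166 and 155 at 100 pM, with no overlap. Its Molm-14 change of 1.01 ± 0.33 passed the test (adjusted p = 0.0233), but not with DESeq2 (adjusted p = 0.0781) or with any 1 of its 4 libraries left out (adjusted p from 0.0637 to 0.138).

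The list of nuclear RNAs held NEAT1, MALAT1, SNHG14, JPX and FTX among the members, 2 of 5 higher and 2 lower in HL-60 and 3 higher and none lower in Molm-14 cells at the high dose, beside 32.8% and 32.7% of all genes tested in HL-60 and 18.3% and 19.1% in Molm-14 cells. The HL-60 counts are near the share of all genes. FTX, a transcript of the X-inactivation center that carries miRNA genes, had 14.2 and 18.3 CPM in HL-60 cells at 500 pM and 23.4 and 22 in controls, and 19.9 and 18.4 CPM in Molm-14 cells at 100 pM and 10.9 and 11.1 in controls. It fell in HL-60 (-0.46 ± 0.09, adjusted p = 0.000151) and rose in Molm-14 cells (0.80 ± 0.09, adjusted p = 2.86e-06). The difference between these changes was -1.26 ± 0.13 (adjusted p = 3.18e-07). SNHG14, a long transcript of the Prader-Willi region on chromosome 15, had 67.8 and 72.4 CPM in HL-60 cells at 500 pM against 111 and 103 in controls (-0.61 ± 0.05, adjusted p = 2.61e-09). In Molm-14 cells SNHG14 showed 0.07 ± 0.04 and did not pass the test.

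**Figure D3:**
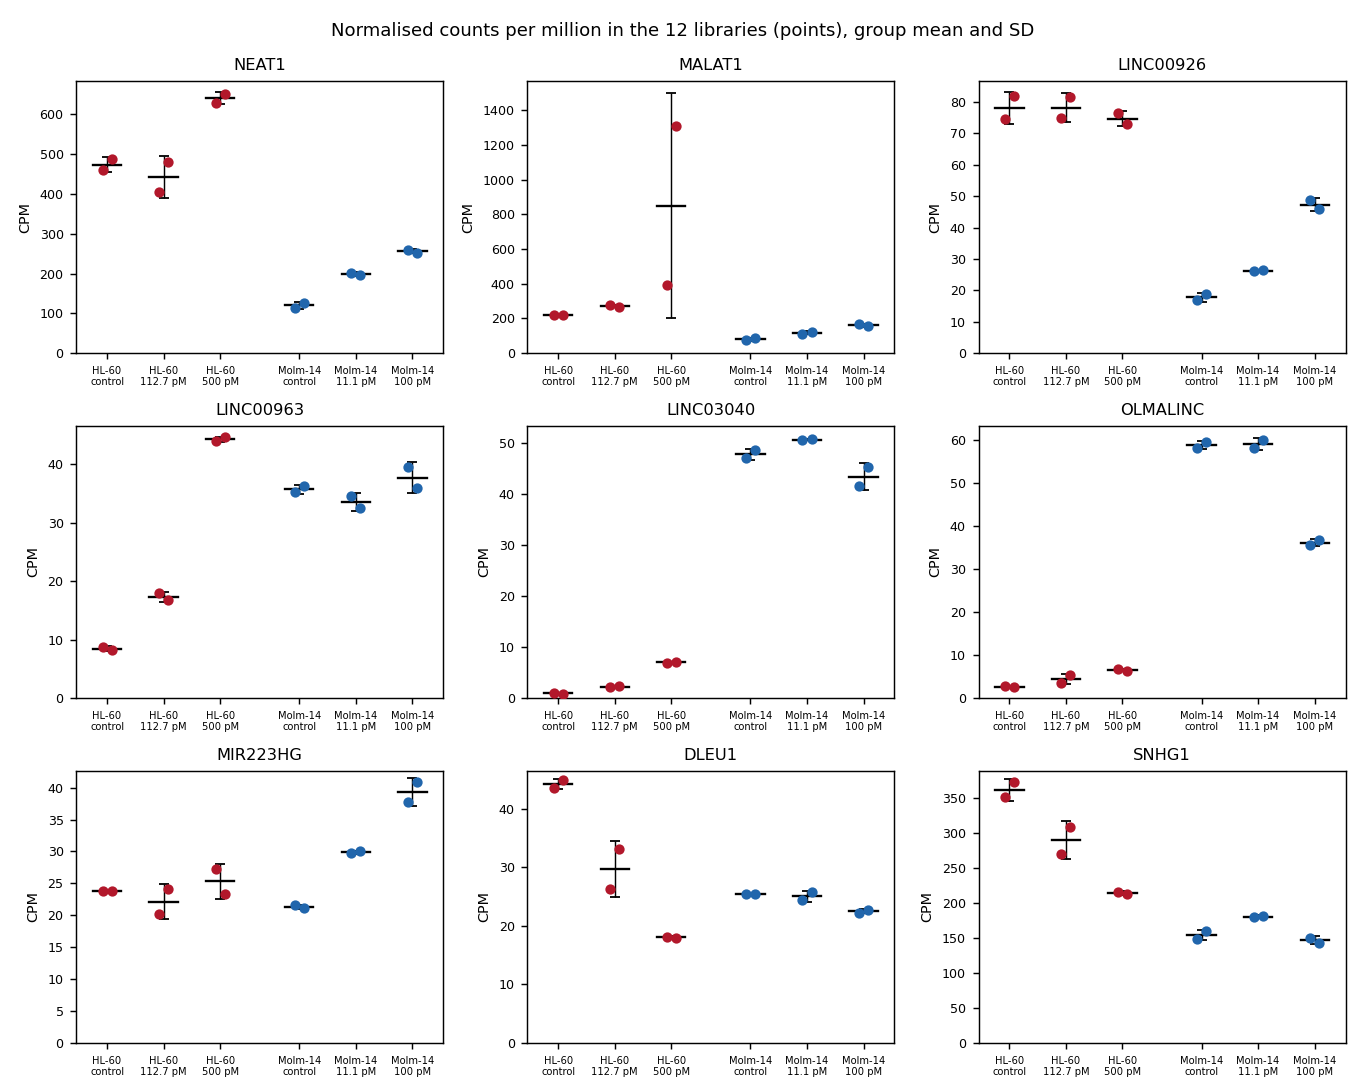
TMM-scaled CPM of 9 members in each of the 12 libraries (points), with group means (lines) and SD over 2 libraries (bars); doses run from control to high within each line, HL-60 left. LINC00963 climbs to 44 and 44.6 CPM in HL-60 cells at 500 pM and LINC00926 to 48.7 and 45.8 CPM in Molm-14 cells at 100 pM, and the MALAT1 bar in HL-60 cells at 500 pM reflects 1 library at 1310 CPM.

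The list of snoRNA host genes had 23 members, of which 2 rose and 14 fell in HL-60 cells at 500 pM, and 4 rose and 2 fell in Molm-14 cells at 100 pM. Of all genes tested 32.8% rose and 32.7% fell in HL-60 and 18.3% and 19.1% in Molm-14 cells. Of the 9751 other genes with a mean of at least 7.38 CPM, 51.5% fell in HL-60 and 31.4% in Molm-14 cells. The hosts' median log2 fold change was -0.25 in HL-60 and 0.02 in Molm-14 cells. Medians were 0.02 and 0.00 over all genes tested and -0.15 and -0.04 over those 9751 genes. The difference between the lines (HL-60 change less Molm-14 change) was called lower in 14 of the 23 and higher in none. Of all genes tested 24.6% were lower and 21.2% higher by this difference, and of the 9751 genes 39.1% and 24.2%. At 112.7 pM 12 of the 23 were already lower in HL-60 cells, beside 22.3% of all genes tested and 36.4% of the 9751 genes. With total-count scaling 5 rose and 10 fell in HL-60 cells at 500 pM, with a median of -0.09, and the difference between the lines was called lower in 10 and higher in 3.

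SNHG1, which hosts several box C/D snoRNAs on chromosome 11, had 350 and 372 CPM in HL-60 controls, 270 and 308 at 112.7 pM and 216 and 212 at 500 pM. In Molm-14 cells it had 149 and 159 CPM in controls, 179 and 181 at 11.1 pM and 150 and 143 at 100 pM. It fell by 0.75 on the log2 scale in HL-60 cells (SE 0.05, adjusted p = 6.93e-10), with groups that did not overlap at either step, and showed -0.07 ± 0.05 in Molm-14 cells, which did not pass the test (adjusted p = 0.329). DANCR, named for its role against differentiation of progenitor cells, had 179 and 179 CPM in HL-60 controls, 148 and 152 at 112.7 pM and 109 and 97.2 at 500 pM. Its log2 fold change at 500 pM was -0.80 ± 0.05 (adjusted p = 1.72e-10), the largest decrease of the list. In Molm-14 cells DANCR had 74.2 and 68.7 CPM at 100 pM against 84.4 and 79.0 in controls, and fell by 0.19.

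SNHG4 (-0.65 ± 0.05), SNHG15 (-0.61 ± 0.05), SNHG17 (-0.53 ± 0.04), SNHG7 (-0.48 ± 0.05), SNHG26 (-0.41 ± 0.09) and SNHG3 (-0.40 ± 0.05) also fell in HL-60 cells at 500 pM. SNHG29 had 571 and 582 CPM in HL-60 cells at 500 pM and 583 and 590 in controls, and 1645 and 1611 CPM in Molm-14 cells at 100 pM and 1674 and 1611 in controls. Its changes were -0.02 ± 0.03 and -0.01 ± 0.03, and neither passed the test. GAS5, which gathers in cells whose growth is arrested, had 241 and 245 CPM in HL-60 cells at 500 pM and 263 and 268 in controls (-0.13 ± 0.04, adjusted p = 0.00652), which turned to 0.04 with total-count scaling and lost its call without the second control library (-0.09). ZFAS1 fell by 0.25 in HL-60 cells (SE 0.04), while SNHG32 rose by 0.11 ± 0.04 (adjusted p = 0.018) and SNHG19 by 0.28 ± 0.09. The call of SNHG32 was lost without the first control (0.06) or the first high-dose library (0.08). In Molm-14 cells SNHG12 (0.45 ± 0.08), SNHG26 (0.33 ± 0.09), SNHG3 (0.19 ± 0.05) and SNHG8 (0.11 ± 0.04) rose, and SNHG7 fell by 0.29 with DANCR. The SNHG3 call was lost without the second control (0.19) or the first high-dose library (0.14).

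**Figure D4:**
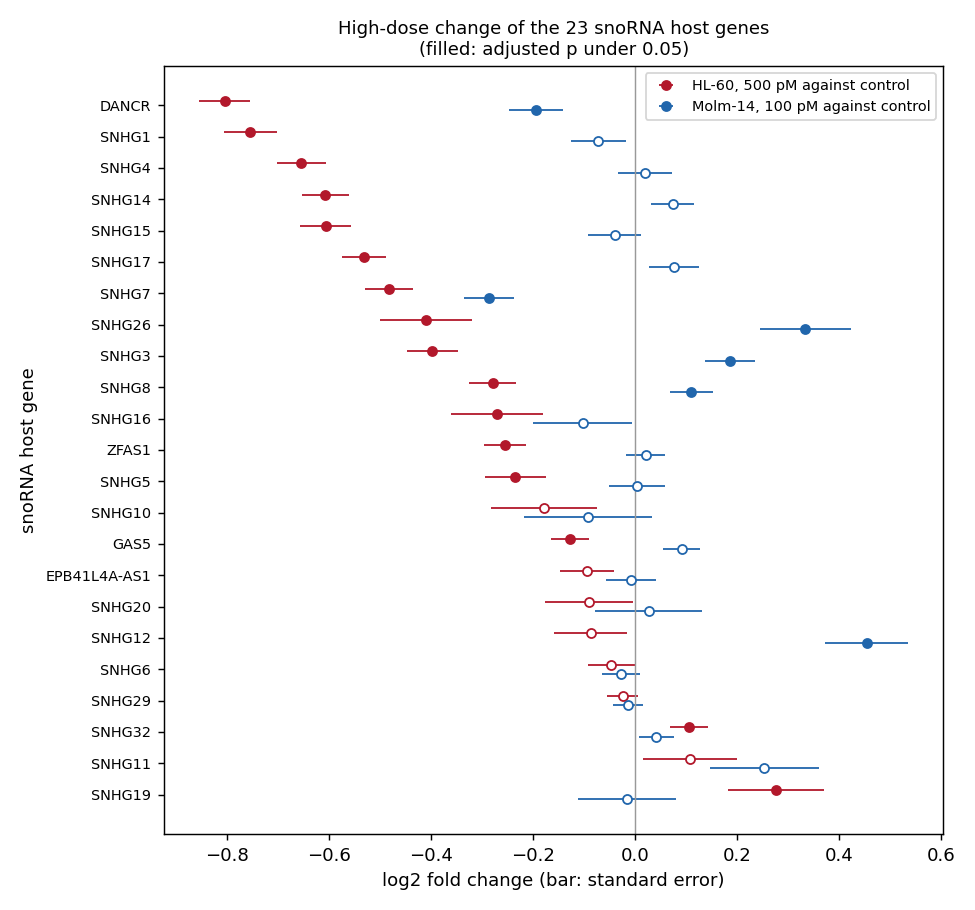
High-dose log2 fold change of the 23 snoRNA host genes in HL-60 (red) and Molm-14 cells (blue), ordered by the HL-60 change; bars are standard errors and filled points have an adjusted p under 0.05. DANCR (-0.80) and SNHG1 (-0.75) lie farthest left in HL-60 cells, while 17 of the 23 Molm-14 points are open.

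Many snoRNA hosts are members of the 5′ TOP class of genes, whose transcripts begin with a C followed by pyrimidines and which follow the growth state of the cell. RefSeq promoter sequences (GRCh38.p14) were matched by symbol for 120 of the 200 members and 21 of the 23 hosts. A C followed by at least 4 pyrimidines on the transcribed strand, starting within 10 bases of the annotated start, was found in 15 of these 21 hosts (71.4%), in 49 of the 120 members (40.8%) and in 33.3% of all 27305 promoters. It was found in 25 of the 42 matched members that were lower in HL-60 cells at 500 pM and in 13 of the 46 that were higher. The 25 include the hosts DANCR, SNHG4, SNHG5, SNHG7, SNHG8, SNHG14, SNHG16, SNHG17, SNHG26 and ZFAS1, and the 13 include SNHG32 and SNHG19. These counts are therefore not separate from that of the hosts. A match to these letters is a description and not a mapped start. The stretches below run from 10 bases before the annotated start to 30 bases from it. Only the longest matching pyrimidine run is in capitals, and SNHG4 and SNHG19 also hold a shorter match in small letters. They show 4 hosts with a run, SNHG4, SNHG16, ZFAS1 and SNHG5, that fell in HL-60 cells, 2 with a run, SNHG32 and SNHG19, that rose, and SNHG1, without a run, that fell.
SNHG4, chr5:139274091-139274130, plus strand: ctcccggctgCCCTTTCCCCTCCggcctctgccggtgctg
SNHG16, chr17:76557754-76557793, plus strand: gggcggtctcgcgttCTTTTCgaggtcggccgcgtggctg
ZFAS1, chr20:49278632-49278671, plus strand: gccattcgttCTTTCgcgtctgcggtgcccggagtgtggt
SNHG5, chr6:85678704-85678743, minus strand: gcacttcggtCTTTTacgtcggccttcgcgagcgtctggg
SNHG32, chr6:31834906-31834945, plus strand: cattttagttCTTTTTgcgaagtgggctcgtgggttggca
SNHG19, chr16:2155329-2155368, minus strand: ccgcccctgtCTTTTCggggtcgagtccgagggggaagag
SNHG1, chr11:62855856-62855895, minus strand: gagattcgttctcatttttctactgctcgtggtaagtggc

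The list of miRNA host genes held 11 members, of which 3 rose and 2 fell in HL-60 cells at 500 pM (median 0.06) and 7 rose and 1 fell in Molm-14 cells at 100 pM (median 0.65). Over all genes tested 32.8% rose and 32.7% fell in HL-60 and 18.3% and 19.1% in Molm-14 cells, with medians of 0.02 and 0.00, so the HL-60 counts lie at or under the share of all genes. In HL-60 cells MIR124-1HG, MIR23AHG and MIR4435-2HG rose and DLEU2 and MIR600HG fell, and in Molm-14 cells MIR142HG, MIR223HG, MIR23AHG, MIR124-1HG, MIR646HG, MIRLET7BHG and MIR4435-2HG rose and DLEU2 fell. With total-count scaling 5 rose and 1 fell in HL-60 cells. Mature miRNAs were not measured, so these values are of the host transcripts alone. The RefSeq sequences (GRCh38.p14) of the miRNAs inside 4 of the hosts are shown because they identify what each host carries, with the seed, bases 2 to 8, in capitals. The 2 arms printed for DLEU2 share a seed, and the other arms printed each have their own.
hsa-miR-15a-5p (DLEU2, chr13:50049167-50049188, minus strand): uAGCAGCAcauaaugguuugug
hsa-miR-16-5p (DLEU2, chr13:50049027-50049048, minus strand): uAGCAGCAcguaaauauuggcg
hsa-miR-223-3p (MIR223HG, chrX:66018937-66018958, plus strand): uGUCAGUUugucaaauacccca
hsa-miR-142-3p (MIR142HG, chr17:58331245-58331267, minus strand): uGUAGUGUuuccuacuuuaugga
hsa-miR-23a-3p (MIR23AHG, chr19:13836595-13836615, minus strand): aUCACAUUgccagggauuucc
hsa-miR-27a-3p (MIR23AHG, chr19:13836447-13836467, minus strand): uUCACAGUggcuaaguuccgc
hsa-miR-24-3p (MIR23AHG, chr19:13836289-13836310, minus strand): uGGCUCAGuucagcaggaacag

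MIR223HG and MIR142HG carry miRNAs of the myeloid and the wider blood lineage. MIR223HG had 23.9 and 23.8 CPM in HL-60 controls, 20.2 and 24.0 at 112.7 pM and 27.3 and 23.3 at 500 pM, with groups that overlapped. In Molm-14 cells it had 21.6 and 21.1 CPM in controls, 29.7 and 30.1 at 11.1 pM and 37.8 and 40.9 at 100 pM, each step clear of the last. Its change was 0.07 ± 0.08 in HL-60 (adjusted p = 0.422) and 0.88 ± 0.07 in Molm-14 cells (adjusted p = 5.92e-08), and the difference between them was -0.81 (called). MIR142HG had 57.4 and 69.9 CPM in HL-60 cells at 500 pM against 57.8 and 64.7 in controls. In Molm-14 cells MIR142HG had 53.2 and 56.2 CPM in controls, 91.1 and 88.5 at 11.1 pM and 83.4 and 93.0 at 100 pM, with changes of 0.71 ± 0.07 at the low and 0.69 ± 0.07 at the high dose. High against low dose gave -0.03 ± 0.07 for MIR142HG, which did not pass the test.

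MIR23AHG, the precursor of the miR-23a, miR-27a and miR-24 cluster, rose in both lines. It had 57.9 and 56.6 CPM in HL-60 cells at 500 pM against 28.6 and 32.8 in controls (0.89 ± 0.08, adjusted p = 2.1e-08), and 61.0 and 61.8 CPM in Molm-14 cells at 100 pM against 37.5 and 31 in controls (0.84 ± 0.08, adjusted p = 2.04e-07). Exon bases of MIR23AHG, 12.1% of them, are shared on the opposite strand with ZSWIM4, which also rose (1.14 in HL-60 and 0.65 in Molm-14 cells). MIR124-1HG, on chromosome 8, had 1.37 and 1.73 CPM in HL-60 controls, 3.97 and 3.53 at 112.7 pM and 7.23 and 6.05 at 500 pM. In Molm-14 cells it had 31.7 and 31 CPM in controls, 47.9 and 46.7 at 11.1 pM and 64.3 and 59.5 at 100 pM. Its high-dose changes were 2.04 ± 0.13 and 0.98 ± 0.06, from control levels that did not overlap.

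DLEU1 and DLEU2 lie together at the 13q14 region that is often lost in lymphocytic leukemia. DLEU1 had 43.6 and 44.8 CPM in HL-60 controls, 26.3 and 33.0 at 112.7 pM and 18.1 and 17.9 at 500 pM, a log2 fold change of -1.30 ± 0.08 at the high dose (adjusted p = 8.84e-11) and the largest called decrease of the members in that comparison. DLEU2, the host of miR-15a and miR-16-1 shown above, had 14.4 and 14.1 CPM in HL-60 controls, 6.82 and 8.73 at 112.7 pM and 6.54 and 7.21 at 500 pM (-1.04 ± 0.11, adjusted p = 1.39e-07). Both fell at 112.7 and at 500 pM in HL-60 cells, and between those doses DLEU1 fell further (-0.74) while DLEU2 did not pass the test (-0.19 ± 0.13). DLEU1 shares exon bases with DLEU7 and DLEU2 with TRIM13, both on the opposite strand. In Molm-14 cells DLEU2 fell by 0.35 (SE 0.09, adjusted p = 0.00348), with 18.9 and 19.3 CPM at 100 pM against 23.3 and 25.3 in controls, and it lost its call without the second control library (-0.28).

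The lists of RNAs tied to p53 or DNA damage and of broadly expressed RNAs held 3 and 7 members. Of the 3, NEAT1 rose, NORAD fell and PVT1 did not pass the test in HL-60 cells at 500 pM, while all 3 rose in Molm-14 cells at 100 pM, beside 32.8% of all genes higher and 32.7% lower in HL-60 and 18.3% higher in Molm-14 cells. PVT1, the neighbour of MYC on chromosome 8, had 8.14 and 8.89 CPM in HL-60 cells at 500 pM against 8.02 and 7.67 in controls (0.13 ± 0.08, adjusted p = 0.146), and it passed the test there with total-count scaling (0.30). In Molm-14 cells PVT1 had 33.6 and 34.1 CPM in controls, 42.9 and 41.8 at 11.1 pM and 60.5 and 62.4 at 100 pM (0.86 ± 0.05, adjusted p = 5.85e-10). NORAD had 245 and 269 CPM in HL-60 cells at 500 pM against 312 and 307 in controls, and fell by 0.26 (SE 0.04), a call that was lost with total-count scaling. In Molm-14 cells NORAD had 207 and 213 CPM at 100 pM against 170 and 172 in controls and rose by 0.30 ± 0.04. For all 3 the difference between the lines was called, at -0.66 for NEAT1, -0.56 for NORAD and -0.73 for PVT1.

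Of the 7 broadly expressed RNAs, 2 rose and 4 fell in HL-60 cells and 2 rose and none fell in Molm-14 cells at the high doses, beside 32.8% and 32.7% of all genes tested in HL-60 and 18.3% and 19.1% in Molm-14 cells. In both lines 2 of 7 higher is near the share of all genes. THUMPD3-AS1 rose in both lines (0.34 in HL-60 and 0.33 in Molm-14 cells). OIP5-AS1, a cytoplasmic RNA that pairs with miR-7, had 194 and 217 CPM in HL-60 cells at 500 pM against 276 and 249 in controls (-0.35 ± 0.06). EBLN3P, which derives from a viral element of the bornavirus kind, had 48.5 and 46.2 CPM in HL-60 cells at 500 pM against 78.4 and 74.5 in controls (-0.69 ± 0.04). CYTOR rose in HL-60 cells, with 35.5 and 37.2 CPM at 500 pM against 27.3 and 26.6 in controls (0.43 ± 0.06). LINC00667 fell by 0.14 in HL-60 cells with an adjusted p of 0.043, its sign turned with total-count scaling (0.02), and the call was lost without either control or without the first high-dose library (-0.16 to -0.12). Among the 4 members on the list of myeloid and HOX RNAs, MIR142HG, MIR223HG and MIR4435-2HG rose in Molm-14 cells and MIR4435-2HG alone rose in HL-60 cells (0.48 ± 0.06), where CCDC26 showed -0.03 ± 0.09. No RNA-enzyme component on the lists was among the members.

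ENSG00000272405, LINC03040 and LINC00963 had the largest increases of the members in HL-60 cells at 500 pM. ENSG00000272405 had 2.68 and 3.37 CPM in HL-60 controls, 10.1 and 9.93 at 112.7 pM and 24.7 and 26.1 at 500 pM (3.05 ± 0.11 at the high dose, adjusted p = 1.6e-13). LINC03040 had 0.961 and 0.863 CPM in controls, 2.17 and 2.27 at 112.7 pM and 6.89 and 7.10 at 500 pM (2.95 ± 0.13, adjusted p = 1.76e-12). LINC00963 had 8.80 and 8.15 CPM in controls, 18 and 16.7 at 112.7 pM and 44 and 44.6 at 500 pM (2.40 ± 0.07, adjusted p = 9.24e-15). ENSG00000272405 shares exon bases with BCAN on the opposite strand, and the other members of this trio with no coding gene. All 3 stepped up at each dose with no overlap between groups. In Molm-14 cells LINC03040 had 41.6 and 45.3 CPM at 100 pM against 47.0 and 48.6 in controls and fell by 0.14 (adjusted p = 0.0419), ENSG00000272405 rose by 0.66 ± 0.15, and LINC00963, with 39.6 and 35.9 CPM at 100 pM against 35.2 and 36.3 in controls, did not pass the test.

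PCED1B-AS1, which shares exon bases with PCED1B on the opposite strand, rose in HL-60 cells, with 18.4 and 16.7 CPM in HL-60 cells at 500 pM against 5.16 and 4.68 in controls (1.84 ± 0.08) and 17.4 and 17.5 CPM in Molm-14 cells at 100 pM against 15.6 and 15.1 in controls. SLC9A3-AS1 (1.52 ± 0.13) and MMP25-AS1 (1.39 ± 0.11) also rose in HL-60 cells. MMP25-AS1 shares 20.1% of its exon bases with MMP25, a protease gene of neutrophils on the opposite strand, which rose by 2.50 there. ENSG00000285413 showed 1.65 ± 0.60 in HL-60 cells on 3 to 16 counts a library and lost its call without the second high-dose library (1.12) or the first control library (1.34). OLMALINC moved in opposite directions in the lines. It had 6.67 and 6.28 CPM in HL-60 cells at 500 pM against 2.81 and 2.54 in controls (1.28 ± 0.13, adjusted p = 1.29e-07), and 35.5 and 36.7 CPM in Molm-14 cells at 100 pM against 58.3 and 59.6 in controls (-0.71 ± 0.06, adjusted p = 1.41e-07).

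In Molm-14 cells LINC00926 rose at both doses. It had 16.8 and 18.7 CPM in controls, 26.1 and 26.4 at 11.1 pM and 48.7 and 45.8 at 100 pM (1.41 ± 0.07 at the high dose, adjusted p = 4.72e-11). In HL-60 cells LINC00926 stood at 76.4 and 73.0 CPM at 500 pM and at 74.6 and 81.8 in controls, and did not pass the test. ENSG00000264112 (1.27 ± 0.14), ENSG00000260997 (1.26 ± 0.10), AP1G2-AS1 (1.17 ± 0.11) and SLC39A13-AS1 (1.06 ± 0.08) rose more than 2-fold, with MIR646HG (0.90 ± 0.10) behind them. LINC01215, first by fold change (1.49 ± 0.32, adjusted p = 0.00123), held only 0.837 and 0.567 CPM at 100 pM and 0.243 and 0.257 in controls. AP1G2-AS1 shares 83.3% of its exon bases with AP1G2, an adaptor subunit gene on the opposite strand that rose by 0.85, and ENSG00000277701 and AP1G2-AS1 were among the members higher at 11.1 pM (0.65 ± 0.12 and 0.58 ± 0.12). Those low-dose calls were lost for AP1G2-AS1 without any 1 of its 4 libraries (0.49 to 0.71) and for ENSG00000277701 without the first control (0.48) or the second low-dose library (0.53).

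Of the members that fell, several share exons with a coding gene. In Molm-14 cells ENSG00000284707 had 7.71 and 7.18 CPM at 100 pM against 15.5 and 16.2 in controls (-1.09 ± 0.09, adjusted p = 6.75e-08). It shares 46.7% of its exon bases, on the same strand, with ASNS, the asparagine synthetase gene, which fell by 2.46 in Molm-14 cells. PP7080 (-0.51 ± 0.08) shares 85.4% with SLC9A3 on the same strand, which fell by 0.46. In HL-60 cells ENSG00000260401 had 55.7 and 55.8 CPM at 500 pM against 130 and 132 in controls (-1.23 ± 0.04, adjusted p = 7.11e-14), and its exon bases lie wholly within P2RY2, a nucleotide receptor gene on the same strand, which fell by 1.49. In Molm-14 cells it had 122 and 119 CPM at 100 pM against 94.0 and 89.4 in controls. ENSG00000269930 lies wholly within GOLGA8H, of a multigene family whose copies can split reads, and had 1.43 and 1.02 CPM in HL-60 cells at 500 pM against 3.03 and 2.78 in controls (-1.28 ± 0.23), while GOLGA8H rose by 1.49.

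Other members fell as well. In HL-60 cells LINC00641 (-0.99 ± 0.09), CRNDE (-0.95 ± 0.08), LINC00662 (-0.91 ± 0.07) and OTUD6B-AS1 (-0.90 ± 0.08) fell at 500 pM, and of these only OTUD6B-AS1 shares exon bases with a coding gene, OTUD6B on the opposite strand. CRNDE, named for its expression in colorectal neoplasia, had 30.2 and 29.5 CPM in controls, 19.5 and 17.6 at 112.7 pM and 15.5 and 15.5 at 500 pM. LINC00662 fell in both lines, with 15.7 and 17.5 CPM in HL-60 cells at 500 pM against 32.3 and 30.9 in controls and 23.2 and 23.2 CPM in Molm-14 cells at 100 pM against 31.6 and 34.4 in controls (-0.51 ± 0.06). In Molm-14 cells PKD1P6-NPIPP1 (-0.59 ± 0.08), a read-through of pseudogenes with near copies in the genome, PRKCQ-AS1 (-0.50 ± 0.11), WT1-AS (-0.49 ± 0.08), ARRDC1-AS1 (-0.41 ± 0.09) and RNASEH1-DT (-0.37 ± 0.10) fell too. The call of ARRDC1-AS1 was lost without the first control library (-0.31), and that of RNASEH1-DT without that library (-0.35) or without either high-dose library (-0.36 each).

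Across pairs of a member and a tested coding gene that share exon bases, both being called, shared direction was counted by strand, without a test of the difference. Before the calls, 46 same-strand pairs came from 36 members and 106 opposite-strand pairs from 90, so a member can count more than once. How often unrelated genes moved the same way was not counted. On the same strand 21 of 25 such pairs moved the same way in HL-60 cells at 500 pM and 12 of 16 in Molm-14 cells at 100 pM. On opposite strands 28 of 48 did in HL-60 and 11 of 29 in Molm-14 cells. Among the 87 members that share no exon base, 32 rose and 27 fell in HL-60 cells, and 34 rose and 9 fell in Molm-14 cells.

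The difference between the lines at the high doses (HL-60 change less Molm-14 change) was called higher in 35 members and lower in 71, beside 21.2% and 24.6% of all genes tested. Past a 2-fold difference 11 were higher and 9 lower (9.30% and 2.26% of all genes). With total-count scaling the split was 49 higher and 50 lower. The largest differences were those of LINC03040 (3.09 ± 0.14), ENSG00000272405 (2.39 ± 0.19), LINC00963 (2.32 ± 0.09), OLMALINC (1.99 ± 0.15) and PCED1B-AS1 (1.66 ± 0.11) in 1 direction, and of ENSG00000260401 (-1.63 ± 0.06), ENSG00000269930 (-1.57 ± 0.26), LINC00926 (-1.48 ± 0.09), LINC01215 (-1.43 ± 0.33) and FTX in the other. Of the 74 members higher in HL-60 cells and the 80 higher in Molm-14 cells, 42 were the same genes (56.8% and 52.5%), and 13 of the 80 were lower in HL-60 cells. Of the 63 lower in HL-60 and the 22 lower in Molm-14 cells, 14 were the same (22.2% and 63.6%). In all, 72 members were called in both lines and 33 in neither. The matching overlaps over all genes tested were not counted, so these counts only describe the members.

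**Figure D5:**
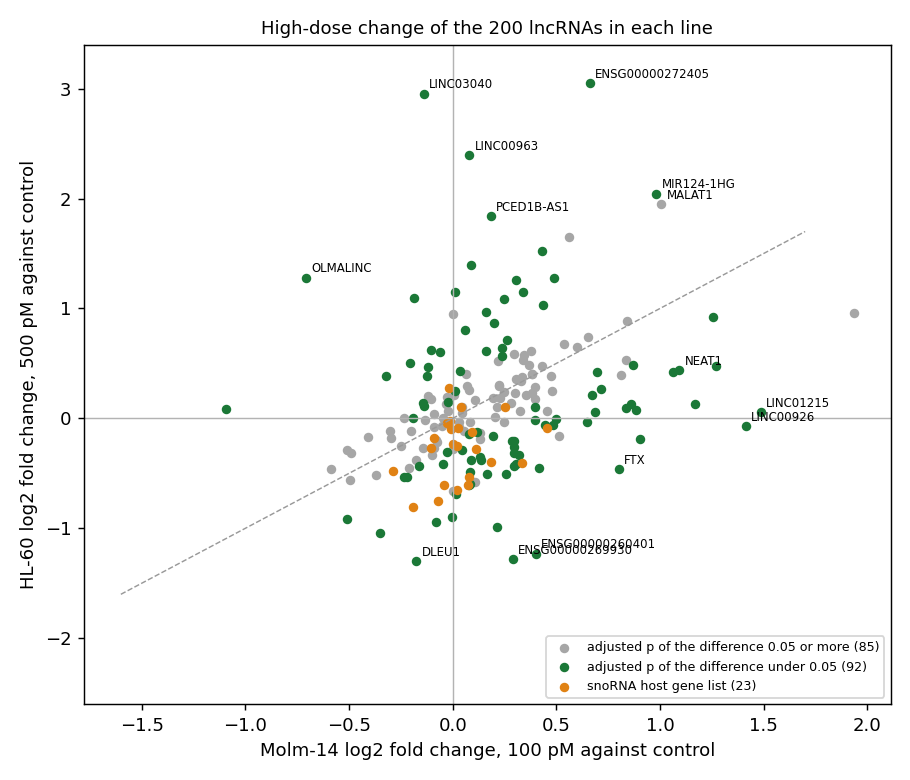
Log2 fold change of the 200 members at the high dose in HL-60 (500 pM, vertical axis) and Molm-14 cells (100 pM, horizontal axis); the dashed line marks equal change, orange points are the 23 snoRNA host genes, and green points are other members with a called difference between the lines. LINC03040, ENSG00000272405 and LINC00963 stand above 2 in HL-60 cells, LINC00926 and LINC01215 to the right at 1.41 and 1.49 in Molm-14 cells, and most orange points lie below 0 in HL-60 cells.

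The control lines differed in most members before any DSA. In HL-60 against Molm-14 controls 87 members were higher and 84 lower (39.5% and 38.7% of all genes tested), and 46 and 45 of them by more than 2-fold (17.2% and 21.5%). Because high values in 1 line could bring a gene into the set, these counts describe the set. DUXAP8 (mean 66.1 CPM), ZNF667-AS1 (28.4) and the lncRNA entry named SIGLEC5 (12.4) had 0 counts in all 6 Molm-14 libraries and were at least 748-fold, 321-fold and 140-fold higher in HL-60 controls, against a floor of 3 counts per library. CCDC144NL-AS1 had a mean of 79.7 CPM in Molm-14 controls and 0 counts in HL-60 controls, at least 1290-fold lower. Its called increase in HL-60 cells at 112.7 pM rests on 1 and 2 counts, with 0 at 500 pM.

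Other members were close to such a switch. MIR9-3HG had 0.329 and 0.320 CPM in HL-60 controls and 69.5 and 71 in Molm-14 controls, MIR1915HG 0.101 and 0.0639 against 28.6 and 26.4, and SOCS2-AS1 0.0506 and 0.0160 against 19.2 and 18.4. CYP1B1-AS1 had 10.8 and 10.8 CPM in HL-60 controls and 0 and 0.0572 in Molm-14 controls, and LINC01215 29.9 and 29.8 against 0.243 and 0.257. None of these groups overlapped. In all, 7 members stayed under 1 CPM in all 6 HL-60 libraries and 6 members in all 6 Molm-14 libraries. SNHG6, a snoRNA host of both lines, had 38.5 and 37.1 CPM in HL-60 controls and 182 and 179 in Molm-14 controls, while NEAT1, MALAT1, SNHG1 and NORAD were higher in HL-60 controls (log2 fold changes 1.98, 1.47, 1.23 and 0.86).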

How the data were processed

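RNA sequencing of 12 libraries was analysed, 2 in each of 6 groups taken from the labels. The authors trimmed reads with Trim Galore (0.60), mapped them to hg38 with STAR (2.7) and estimated gene values by RSEM (1.31) from the annotation of GENCODE release 31. Per gene, the deposited expected counts were not filtered or scaled. The deposited TPM were used to compare levels between genes, to describe single members by library and line, and for an alternative ranking of members. No test was run on TPM, which were not scaled further between libraries. Library selection and strand use are not given in the sources used here.

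Types, symbols and coordinates came from GENCODE release 44 on the same assembly (60261 of 60754 identifiers matched, 448 did not and 45 copies of pseudoautosomal genes on Y were left out). Members were ranked by the CPM of expected counts. Expected counts were rounded, genes were kept by filterByExpr over the 6 groups (17364 genes of all types), and edgeR 4.0.16 (R 4.3.3) scaled them by TMM, fitted 1 mean per group with glmQLFit and tested each contrast with glmQLFTest, with Benjamini-Hochberg adjustment over all genes tested. A call is an adjusted p under 0.05. The SE was worked back from the test, as the size of the log2 fold change over the square root of its F statistic. It has no meaning for genes at 0 counts in a group. The study's own test left out non-coding genes and used limma-voom, which was run here as an alternative (limma 3.58.1), as was DESeq2 1.42.0. Other alternatives changed the scaling, the filter, the libraries, the block and the rule for members. The test was run on data simulated with the spread estimated by the same fit, for the high dose against control. Of genes given a log2 change of 1, 95% were recovered for Molm-14 and 91% for HL-60 cells. At a change of 0.5 these shares were 77% and 69%. Each size of change was given to 100 of the 17364 genes, far fewer than were called in the data. The adjusted p depends on that number, so these shares cannot say how many small changes of the members were missed. False calls were 0 of 172 for Molm-14 and 9 of 169 for HL-60 cells. A floor of 3 counts per library bounds folds against a group at 0, for counting error only.

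Promoters (250 bases before to 50 after the start) and miRNAs came from RefSeq tables (GRCh38.p14). The p53 full-site consensus was also searched on both strands (0 of 120 matched members, 0.0293% of all promoters), as was TGATGNAA, where N is any base (1 of 120, 3.67% of all promoters), and neither is read further.

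Members named are the 10 most abundant; the 10 largest called changes in each direction at each high dose, and 5 in each direction in the other comparisons, among members whose libraries did not overlap; and up to 6 of the most abundant of each list. Counts and the start-site and exon-sharing examples name further members chosen after their values were seen. The members and lists were chosen with earlier results of these data known.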

Additional observations from a re-analysis of the deposited data

Results flagged for a closer look

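The differences between the lines named above were each found by the interaction test (edgeR, change in HL-60 cells at 500 pM minus change in Molm-14 cells at 100 pM), and they compare lines that also differed in dose, medium and serum. LINC03040 differed by 3.09 (2.95 in HL-60 and -0.14 in Molm-14 cells), ENSG00000272405 by 2.39 (3.05 and 0.66), LINC00963 by 2.32 (2.40 and 0.08), OLMALINC by 1.99 (1.28 and -0.71) and PCED1B-AS1 by 1.66 (1.84 and 0.18). ENSG00000260401, which lies within P2RY2, differed by -1.63 (-1.23 and 0.40) and ENSG00000269930 by -1.57 (-1.28 and 0.29). LINC00926 differed by -1.48 (-0.07 and 1.41), LINC01215 by -1.43 (0.06 and 1.49, on 8 to 32 counts in Molm-14 libraries) and FTX by -1.26 (-0.46 and 0.80). In LINC03040, OLMALINC, ENSG00000260401 and FTX both changes were called, in opposite directions.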

How the results depend on the processing

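Limits. Each group had 2 libraries, scaling sets the split of small changes in HL-60 cells, and 113 members share exon bases with coding genes at unknown strand use. Genes near 0 in 1 line rest on few counts there.

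Over 137 values of named members, 2093 alternatives were run: 2019 left direction and call as they were, 56 lost a call, 15 gained one and 3 turned. With total-count scaling in HL-60 cells at 500 pM, SNHG29 turned to 0.14, GAS5 to 0.038 and LINC00667 to 0.024; the scaling moved the median of all genes by more than the size of their changes. That scaling also left 41 members lower at 500 pM and 16 lower against 112.7 pM, with 101 and 86 higher. Of 328 alternatives for counts of calls, 45 moved by over 1.5 times. DESeq2 kept 118 of 137 calls in HL-60 and 78 of 102 in Molm-14 cells at the high doses.

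Asking for a 2-fold change as well left 17 higher and 4 lower in HL-60 and 8 and 1 in Molm-14 cells at the high doses, 5 and 0 in HL-60 and 0 higher in Molm-14 cells at the low doses, 5 and 0 (HL-60) and 2 and 1 (Molm-14) between doses, 46 and 45 between controls and 11 and 9 for the difference. The 87 members with no shared exon gave 32 and 27, 34 and 9, 19 and 21, 10 higher, 29 and 19, 24 and 12, 40 and 35, and 16 and 32 in the same order, by construction over fewer genes. Fitting lncRNA genes only gave 14 lower in Molm-14 cells at 100 pM and 16 lower against 11.1 pM. Members ranked by TPM gave 29 higher there. The Molm-14 count at 11.1 pM was 28 with no filter and 29 with only the libraries compared. The cause was not tested for these.

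Leaving out 1 library at a time gave 61 to 70 higher and 50 to 63 lower in HL-60 and 59 to 64 and 12 to 16 in Molm-14 cells at the high doses, 27 to 34 and 35 to 51 in HL-60 and 3 to 13 and 0 to 0 in Molm-14 cells at the low doses, 44 to 54 and 20 to 33 (HL-60) and 33 to 39 and 17 to 22 (Molm-14) between doses, 79 to 88 and 79 to 82 between controls, and 28 to 33 and 57 to 68 for the difference. A fit with 1 library in a group takes its spread from the other groups.

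Replicate numbers did not pair the libraries (correlations of same-numbered deviations from -0.0212 to 0.119 in HL-60 and from -0.0553 to 0.0638 in Molm-14 cells). With the replicate block, counts were 74 and 60 in HL-60 and 84 and 21 in Molm-14 cells at the high doses, 39 and 55 and 18 and 0 at the low doses, and 35 and 70 for the difference.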

Other observations

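Some members were close to or at 0 counts in Molm-14 libraries and moved with dose in HL-60 cells; they were chosen after their values were seen. CYP1B1-AS1, antisense to the cytochrome P450 gene CYP1B1, had 10.8 and 10.8 CPM in HL-60 controls, 13.6 and 12.8 at 112.7 pM and 20.9 and 20.9 at 500 pM (log2 fold change 0.96, adjusted p = 4.91e-08). The lncRNA entry SIGLEC5, which shares 39.6% of its exon bases with the coding SIGLEC5 gene, had 12.6 and 12.2 CPM in controls, 14.3 and 16.9 at 112.7 pM and 24.5 and 23.5 at 500 pM (0.95, adjusted p = 3.73e-07). DUXAP8, a pseudogene transcript with near copies in the genome, had 67.1 and 65.1 CPM in controls, 51.9 and 49.6 at 112.7 pM and 40.7 and 42.6 at 500 pM (-0.66, adjusted p = 3.84e-08). Groups at 500 pM and in controls did not overlap in any of these genes.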
